A study of Mus musculus with 16 samples.

Results

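The 10 miRNA names described here are mirtrons, hairpins made without Drosha, fragments of other RNAs, and names whose status as miRNAs is disputed. They are mmu-miR-1224, mmu-miR-877, mmu-miR-720, mmu-miR-320, mmu-miR-484, mmu-miR-689, mmu-miR-690, mmu-miR-709, mmu-miR-721 and mmu-miR-1897-5p, 10 of the 650 miRNA names on the array. They were selected by name, with earlier results of the same arrays known: mmu-miR-1224 and mmu-miR-720 had been called there, and 1 array was known to lie apart for mmu-miR-1224 and mmu-miR-689. The values of these 3 are therefore given as a description, with no p. They also enter the counts of calls below, and nothing is read from such counts. All 10 passed the filter for expressed miRNAs, which 281 names passed.

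The arrays measured miRNAs of sciatic nerves from mice in which Cre, driven by the Dhh promoter, acts in Schwann cells. Mutants were Dicer1 fl/fl Dhh-Cre pos and controls Dicer1 wt/fl Dhh-Cre pos, so the controls carried Cre and 1 floxed allele too. Nerves were taken at embryonic day 17 (E17, before myelination) and postnatal day 4 (P4), with 4 mice in each of the groups wt-E17, fl-E17, wt-P4 and fl-P4 (wt for controls, fl for mutants) and 1 Agilent mouse miRNA array per mouse, 16 arrays in all. The strain label was Dicer1tm1Bdh/J. Axons, fibroblasts, vessels and blood in the nerve were not the target of the deletion.

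Most miRNAs are cut out of a long transcript as a hairpin by Drosha and then cut by Dicer into a mature strand. A mirtron is a short intron: splicing frees its ends in place of Drosha, and Dicer still makes the mature strand. The hairpins of mmu-miR-320 and mmu-miR-484 also reach Dicer without Drosha. Fragments of tRNA can arise without either enzyme and still bind a probe for a listed name, as mmu-miR-720 does, a piece of a tRNA that was first listed as a miRNA.

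The RefSeq table (GRCm38.p6) held entries for 5 of the 10 names. The 2 mirtron hairpins are shown because their ends are those of an intron, GU at the start and AG at the end, which held for 2.99% of the 1005 hairpins in the table. Capitals mark the mature strands of both arms. The array's names do not say which arm the probes measured.

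Mir1224 (chr16:20604452-20604536, plus strand): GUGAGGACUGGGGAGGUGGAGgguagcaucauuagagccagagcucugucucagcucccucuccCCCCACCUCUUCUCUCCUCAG

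Mir877 (chr17:35960730-35960814, minus strand): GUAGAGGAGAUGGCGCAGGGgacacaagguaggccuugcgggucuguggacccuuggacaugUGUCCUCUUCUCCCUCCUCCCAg

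Mir1224 lies within the gene Vwa5b2 and Mir877 within Abcf1. The 5′ strand of Mir1224 carries 13 G in 21 bases, and that of Mir877 11 G in 20 bases. The 3 names that matched a mature strand exactly follow, with the seed (bases 2 to 8) in capitals, since the seed decides which target sites a miRNA can pair with.

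mmu-miR-721 (chr5:136375777-136375797, minus strand): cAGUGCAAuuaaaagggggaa

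mmu-miR-484 (chr16:14159630-14159651, plus strand): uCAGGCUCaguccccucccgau

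mmu-miR-690 (chr16:28599940-28599961, minus strand): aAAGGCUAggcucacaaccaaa

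Of these 3, mmu-miR-721 alone shared its seed with other mature strands of the table, 6 in all, among them those of miR-130a, miR-130b and miR-301a. Mir721 lies within the gene Cux1 and Mir690 within Fgf12, while no listed gene spans Mir484.

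Arrays were checked first. The sum of the miRNA signals before normalization was 122900 to 154100 in P4 controls, 56840 to 83630 in P4 mutants and 36500 to 60370 over both E17 groups. The summed signal of 3 miRNAs known from Schwann cells (miR-338-3p, miR-204, miR-138) was 4923 to 5627 in P4 controls and 231.7 to 462 in P4 mutants. The paper listed these 3 for their decrease in P4 mutants on these same arrays, so this is no independent check of the labels. At E17 the sum was 511.2 to 1124 in controls and 473.3 to 671.1 in mutants, which overlapped. Arrays wt-P4 3 and fl-P4 3 had 251 and 424 spots marked as non-uniform, the other 14 at most 37. All E17 arrays were on 1 slide and all P4 arrays on another, so a difference between slides cannot be told apart from one between ages; mutants and controls of an age lay on the same slide. In whole nerves, fewer cells of a type and less RNA per cell cannot be told apart either.

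Array wt-P4 2 lay apart from the other 3 P4 controls for 17 of the 281 expressed miRNAs, by Dixon's ratio of the gap to the whole range (above its 95% critical value). It was higher for 12 and lower for 5. The other 15 arrays lay apart within their own groups for 0 to 14 miRNAs. The 12 raised miRNAs included 2 of the 10 names. By size of the gap they were led by miR-122, a liver miRNA, with 3.18 on the log2 scale, then mmu-miR-1224 with 3.12, miR-494 with 2.49, mmu-miR-689 with 1.82 and the erythroid miR-451 with 1.82. Array wt-P4 2 had the lowest mean correlation with the other P4 controls, 0.964 against 0.985 to 0.986 for those 3. Its Schwann cell signal, 5206, lay within the range of the other controls. Results that rest on it are given with and without it.

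**Figure D1:**
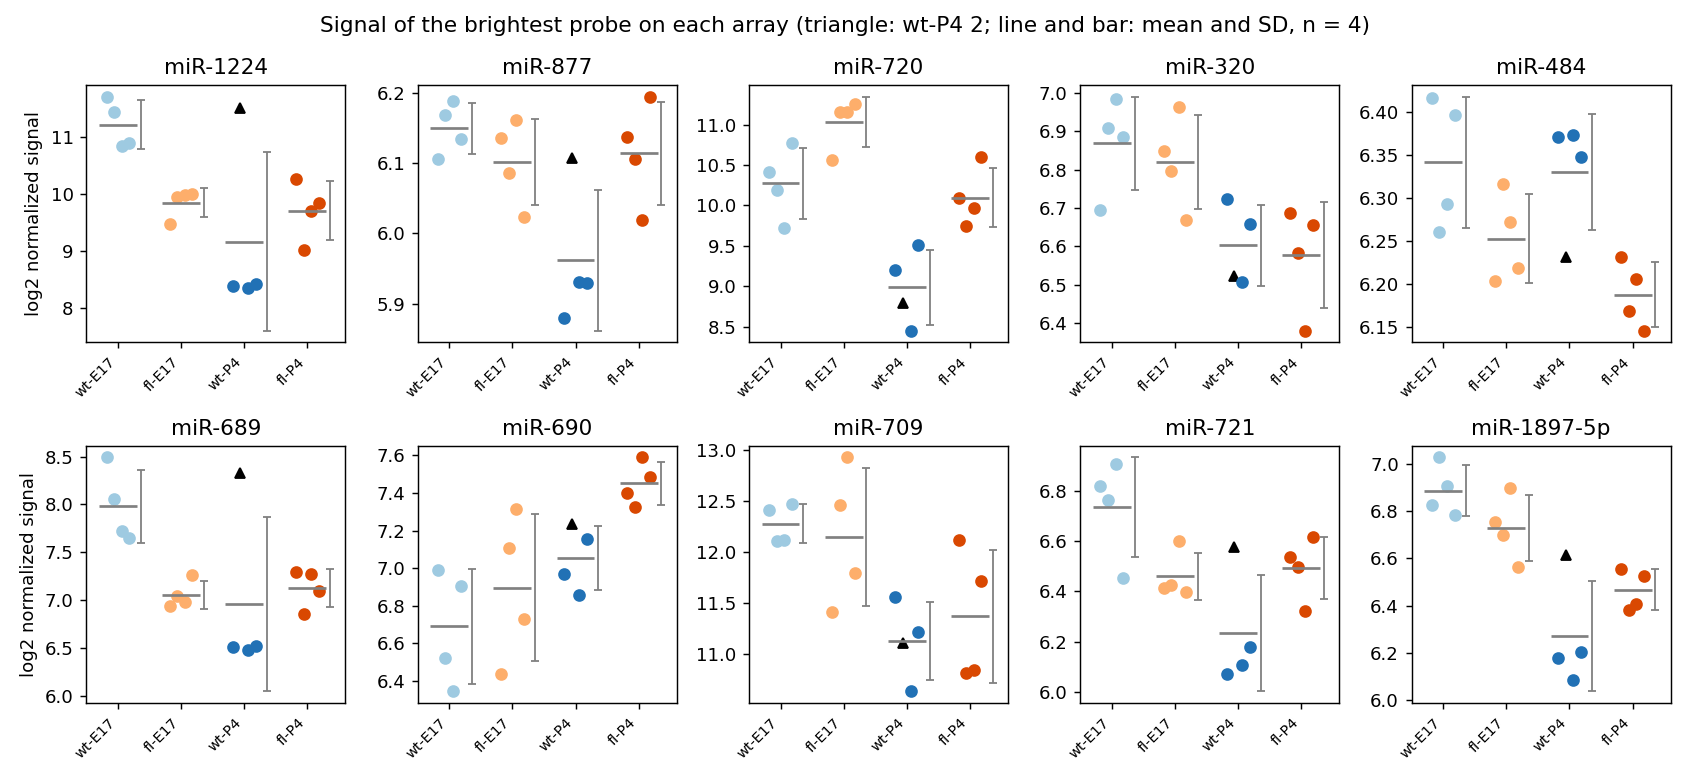
Log2 quantile-normalized signal of the brightest probe of each name on every array (y axis; each panel has its own range, none starting at 0) by group (x axis); points are arrays, the triangle is wt-P4 2, and the grey line and bar are the mean and SD of 4 arrays. The triangle stands far above the other P4 controls for miR-1224 and miR-689 and less far for miR-721 and miR-1897-5p.

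Levels are log2 normalized signals of the probe with the highest mean, and they are compared only within a probe. For the mirtron mmu-miR-1224 they were 11.71, 11.44, 10.84 and 10.89 in E17 controls and 9.48, 9.94, 9.97 and 9.997 in E17 mutants. The P4 signals were 8.38, 11.51, 8.35 and 8.42 in controls and 10.25, 9.02, 9.70 and 9.85 in mutants. The groups did not overlap at E17, where every mutant was lower and 24.9% of the 281 expressed miRNAs did not overlap. At P4, 3 controls lay between 8.35 and 8.42 and below every mutant, and the fourth, wt-P4 2, lay above every mutant.

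The group means of mmu-miR-1224 were thus ordered 11.22 ± 0.43 (SD, n = 4) in wt-E17, 9.85 ± 0.25 in fl-E17, 9.71 ± 0.51 in fl-P4 and 9.17 ± 1.56 in wt-P4, and the values of the last 3 groups overlapped. Through wt-P4 2 the P4 controls also overlapped the E17 controls. Without wt-P4 2 the P4 controls had a mean of 8.39 ± 0.04 (n = 3). The mutant minus control difference was −1.37 at E17, with a standard error of 0.57 with all arrays and 0.24 without wt-P4 2. The fit pooled the spread over all groups, so this P4 array also entered the E17 error. At P4 the difference was 0.54 (standard error 0.57) with all arrays and 1.32 (0.26) without wt-P4 2. The fall from E17 to P4 in controls was −2.05 with all arrays and −2.83 without that one. Without normalization between arrays the E17 difference was −1.44, the P4 difference −0.17, in the other direction, and the fall in controls −0.64, all with wt-P4 2 included. Unnormalized P4 signals were 9.10, 12.45, 9.33 and 9.02 in controls (median 9.21) and 10.17, 9.19, 9.89 and 9.96 in mutants (median 9.92). Only wt-P4 2 lay above every mutant, so the negative P4 difference rests on that array. The other P4 controls lay below every E17 control (9.94 to 11.06) on that scale too. The 2 probes of mmu-miR-1224 correlated with r = 0.986 over the 16 arrays, and wt-P4 2 stood apart in both (9.19 against 6.86, 6.96 and 6.89 in the second probe). Before normalization wt-P4 2 exceeded the other P4 controls by 3.305.

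The other mirtron, mmu-miR-877, was near background: none of its 4 probes was well above background on any array, by most of their spots, and Feature Extraction detected it on 4 of 16 arrays. Its values ran from 5.88 to 6.19 over all 16 arrays. The lowest 3 were the P4 controls other than wt-P4 2, at 5.88, 5.93 and 5.93. Since the probes were not well above background in either group, no fold is given (limma adjusted p = 0.0238 for mutants against controls at P4, with a difference under the log2 limit of 0.5 set for a call).

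Neither hairpin that bypasses Drosha passed the log2 limit of 0.5 between mutants and controls after quantile normalization, and other scalings moved both. For mmu-miR-320 the signals were 6.70, 6.91, 6.98 and 6.88 in E17 controls and 6.85, 6.80, 6.97 and 6.67 in E17 mutants. At P4 the values were 6.72, 6.52, 6.51 and 6.66 in controls and 6.69, 6.58, 6.38 and 6.66 in mutants. Mutants and controls overlapped at both ages. The mutant minus control difference was −0.03 at P4 (95% interval −0.20 to 0.15, limma adjusted p = 0.825) and −0.05 at E17 (−0.23 to 0.13, adjusted p = 0.760). From E17 to P4 it differed by −0.27 in controls (adjusted p = 0.0192) and −0.24 in mutants (adjusted p = 0.0407), both under the limit of 0.5. Without normalization between arrays the value in controls was 0.32, in the other direction. Scaled to the 75th percentile of miRNAs detected on all arrays, the P4 difference between mutants and controls was 0.34 (adjusted p = 0.0284), and the dimmer probe, at 0.61, was called higher. That probe was well above background on 0 P4 controls and 1 P4 mutant, and on 4 of the 16 arrays. Of all 281 expressed miRNAs this scaling called 169 higher and 41 lower at P4.

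For mmu-miR-484 the P4 controls had 6.37, 6.23, 6.37 and 6.35 and the P4 mutants 6.23, 6.17, 6.21 and 6.15. The lowest control, wt-P4 2, equalled the highest mutant to 2 decimals. The difference was −0.14 (95% interval −0.24 to −0.05, limma adjusted p = 0.0161), under the limit of 0.5. In background-subtracted signals it was −0.70 (adjusted p = 0.00740), a call. Scaled to the 75th percentile of miRNAs detected on all arrays it turned to 0.33 (adjusted p = 0.0481), with the dimmer probe called higher at 0.52. Its brightest probe was well above background on all 4 P4 controls and on none of the P4 mutants. After quantile normalization the signal of that probe in controls was at least 1.03-fold higher. This is against the higher of its own signal and the lowest signal well above background on each mutant array. The dimmer probe was well above background on 0 arrays and differed by −0.03 at P4 (limma adjusted p = 0.4995), so the bound rests on 1 probe. At E17 the difference was −0.09 (−0.18 to 0.00, adjusted p = 0.206).

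The tRNA fragment mmu-miR-720 was higher in mutants at both ages after normalization. Its signals were 10.42, 10.19, 9.73 and 10.78 in E17 controls and 10.57, 11.15, 11.15 and 11.26 in E17 mutants. At P4 they were 9.20, 8.79, 8.45 and 9.51 in controls and 10.09, 9.74, 9.96 and 10.60 in mutants. The groups did not overlap at P4, as held for 48.4% of all 281 expressed miRNAs. They overlapped at E17, where fl-E17 1 lay below wt-E17 4. The group means were ordered 11.03 ± 0.31 (SD, n = 4) in fl-E17, 10.28 ± 0.44 in wt-E17, 10.10 ± 0.36 in fl-P4 and 8.99 ± 0.46 in wt-P4.

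The differences of mmu-miR-720 depended on the scale. The mutant minus control difference was 1.11 (standard error 0.26) at P4 and 0.76 (0.26) at E17 after normalization, and 0.28 (0.21) and 0.57 (0.21) without it. Unnormalized signals at P4 were 9.99, 9.82, 9.44 and 10.39 in controls and 10.03, 10.01, 10.18 and 10.54 in mutants, which overlapped. The difference from E17 to P4 in controls was −1.29 (0.26) after normalization and 0.21 (0.21) without, a change of sign. Without normalization the median of all 281 miRNAs moved by −0.19 in mutants at P4 and by 0.57 with age in controls, against 0.06 and −0.02 after it. Relative to these medians mmu-miR-720 was higher in mutants at P4 on both scales.

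**Figure D2:**
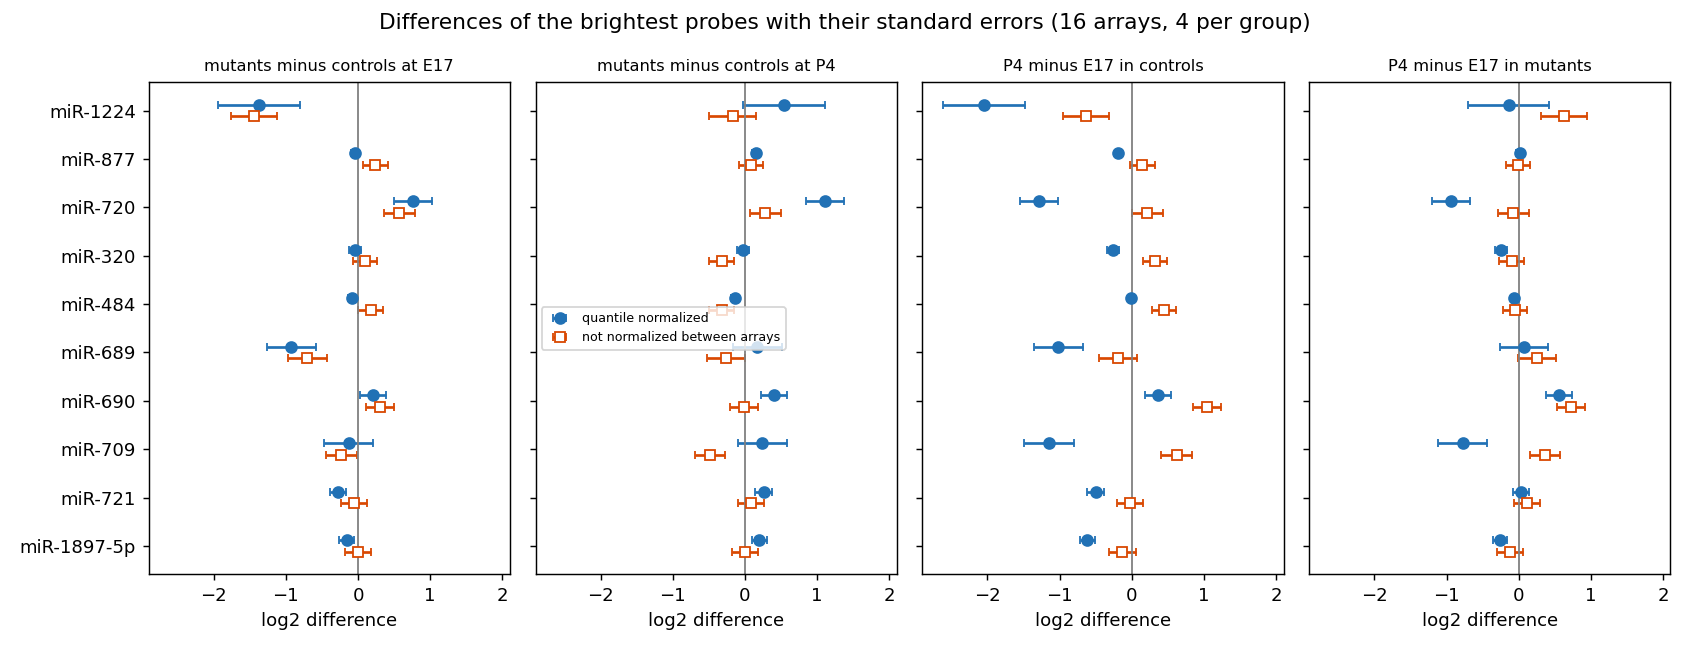
Log2 differences (x axis) of the brightest probe of each name (y axis) in 4 comparisons, with standard errors as bars, after quantile normalization (filled circles) and without normalization between arrays (open squares). For miR-720 and miR-709 the age difference in controls is below 0 after normalization and above 0 without it, and for miR-1224 the P4 difference turns from 0.54 to −0.17 while the E17 difference is below −1 on both scales.

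Of the disputed names, mmu-miR-689 followed mmu-miR-1224. Its signals were 8.49, 8.06, 7.72 and 7.65 in E17 controls and 6.94, 7.05, 6.98 and 7.26 in E17 mutants. The P4 signals were 6.51, 8.33, 6.48 and 6.53 in controls and 7.29, 6.86, 7.27 and 7.10 in mutants. As for mmu-miR-1224, every E17 mutant lay below every E17 control, and every P4 mutant lay above 3 P4 controls and below wt-P4 2.

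The means of mmu-miR-689 were 7.98 ± 0.38 in wt-E17, 7.13 ± 0.20 in fl-P4, 7.06 ± 0.14 in fl-E17 and 6.96 ± 0.91 in wt-P4 (SD, n = 4), the last 3 overlapping and wt-P4 2 also within the range of wt-E17. The difference at E17 was −0.92 (standard error 0.34 with all arrays and 0.16 without wt-P4 2). At P4 it was 0.17 (0.34) with all arrays and 0.63 (0.17) without wt-P4 2, more than 1.5 times larger. Without normalization the differences were −0.70 at E17 and −0.26 at P4, the latter again in the other direction with wt-P4 2 included. Unnormalized P4 signals were 6.86, 9.31, 6.75 and 6.68 in controls and 7.28, 6.92, 7.16 and 7.19 in mutants. There too every mutant lay above 3 controls and below wt-P4 2, so the change of sign rests on that array. Over the 16 arrays mmu-miR-689 and mmu-miR-1224 correlated with r = 0.968 (Spearman 0.956), and with r = 0.966 over the 15 without wt-P4 2. Within the 8 arrays of an age r was 0.9751 at E17 and 0.980 at P4. These correlations are a description, since the arrays share slides and the normalization.

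For mmu-miR-721 the signals were 6.82, 6.76, 6.91 and 6.45 in E17 controls and 6.41, 6.43, 6.60 and 6.40 in E17 mutants. At P4 the values were 6.07, 6.58, 6.11 and 6.18 in controls and 6.53, 6.498, 6.32 and 6.61 in mutants. Controls stood mostly above mutants at E17 and mostly below at P4, with wt-E17 4 and wt-P4 2 as the exceptions.

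The mutant effect on mmu-miR-721 changed between the ages by 0.53 (standard error 0.16, limma adjusted p = 0.0392), from −0.28 at E17 (adjusted p = 0.131) to 0.26 at P4 (adjusted p = 0.0838). Without wt-P4 2 the change was 0.65 (0.13, adjusted p = 0.00322). Its 4 probes gave changes of 0.49 to 0.62 with adjusted p of 0.0164 to 0.0407, and 3 of them passed both limits. Without normalization between arrays the change was 0.13 (adjusted p = 0.669). From E17 to P4 it fell by 0.50 in controls (adjusted p = 0.00327), where only the brightest of its 4 probes passed the limit of 0.5. The difference with age in mutants was 0.03 (95% interval −0.21 to 0.28). The probe was well above background on 1 P4 control (wt-P4 2), 3 P4 mutants, 4 E17 controls and 1 E17 mutant, so these signals lie close to background. On leaving out any one of 12 arrays (all but wt-E17 4, fl-E17 3, wt-P4 2 and fl-P4 3) the brightest probe no longer passed for the change of the mutant effect, with adjusted p of 0.0610 to 0.0872, but the miRNA was called through another probe in all 16 such fits. The call for the fall in controls was lost on leaving out any one of 6 (wt-E17 1, 2 and 3, wt-P4 1, 3 and 4), where the fall came under 0.5.

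The 3 expressed miRNAs that share the seed of mmu-miR-721 were set beside it. Their mutant effects changed between the ages by 0.07 for miR-130a, −0.08 for miR-130b and −0.05 for miR-301a (limma adjusted p = 0.891, 0.808 and 0.913). Of these, miR-130b was lower in mutants at both ages, by −0.59 at E17 (adjusted p = 0.00556) and −0.66 at P4 (adjusted p = 0.000238). With age in controls all 3 lay lower, as mmu-miR-721 did: miR-130a by −0.57 (adjusted p = 0.0126), miR-130b by −0.35 (adjusted p = 0.0207) and miR-301a by −0.44 (adjusted p = 0.0144). The first of these passed the limit of 0.5. Their correlation with mmu-miR-721 over the 16 arrays was r = 0.214 to 0.475 (Spearman 0.106 to 0.341).

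For mmu-miR-1897-5p the signals were 6.82, 7.03, 6.91 and 6.78 in E17 controls and 6.76, 6.70, 6.90 and 6.56 in E17 mutants. At P4 they were 6.18, 6.61, 6.09 and 6.21 in controls and 6.56, 6.38, 6.41 and 6.53 in mutants. Every P4 control lay below every E17 control, with wt-P4 2 the highest of the P4 controls. The controls of the 2 ages did not overlap for 43.4% of all 281 expressed miRNAs. The fall in controls was −0.62 (standard error 0.10, limma adjusted p = 0.000308), and the difference with age in mutants −0.26 (adjusted p = 0.0737), but without normalization the value in controls was −0.13 (adjusted p = 0.504). The probe was well above background on 4 E17 controls, 4 E17 mutants, 2 P4 controls and 3 P4 mutants, so the P4 control signals lie close to background. The mutant minus control difference at P4 was 0.20 (adjusted p = 0.134) with all arrays and 0.31 (adjusted p = 0.00481) without wt-P4 2, under the limit of 0.5 both times.

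**Figure D3:**
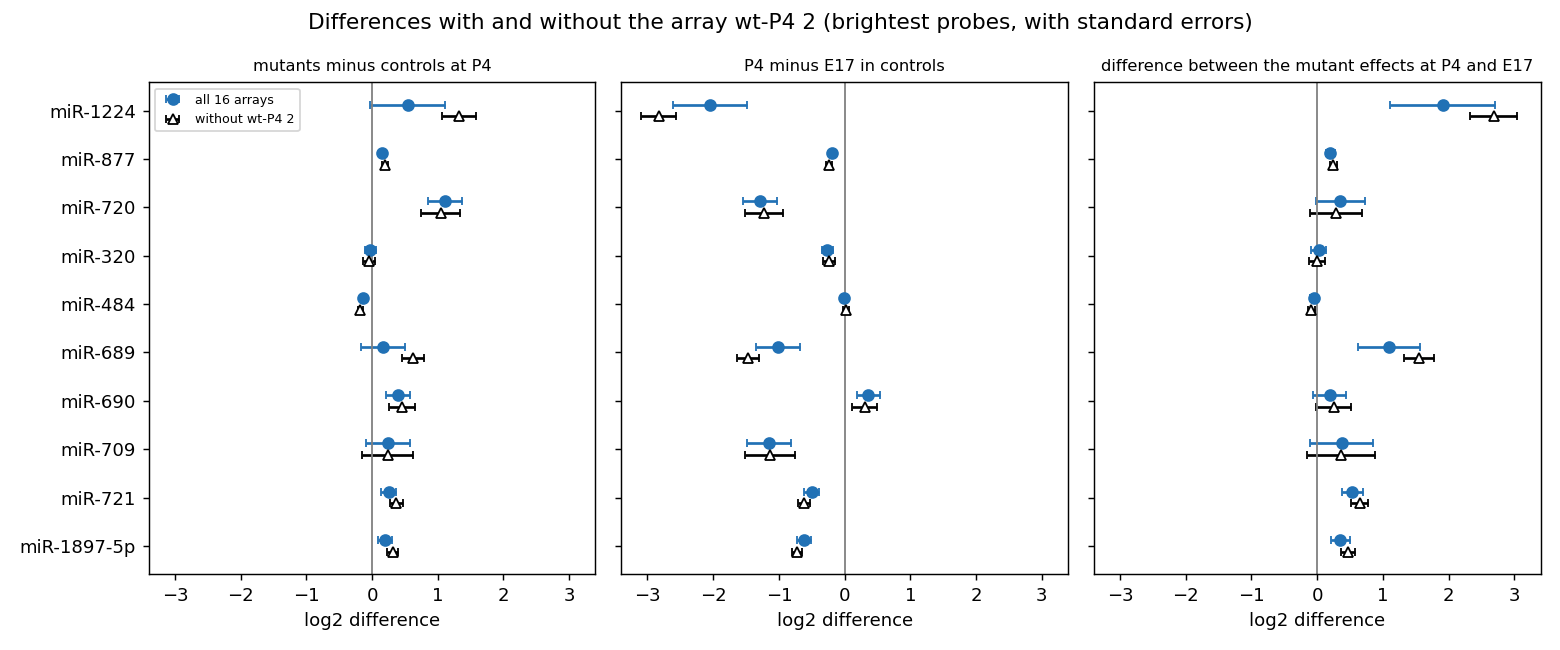
Log2 differences (x axis) of the brightest probe of each name (y axis) with all 16 arrays (filled circles) and without wt-P4 2 (open triangles), with standard errors as bars. The P4 difference of miR-1224 moves from 0.54 to 1.32 and that of miR-689 from 0.17 to 0.63, while those of miR-320, miR-484 and miR-709 move by less than their standard errors.

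For mmu-miR-690 the signals were 6.99, 6.52, 6.34 and 6.91 in E17 controls and 6.43, 7.10, 7.31 and 6.73 in E17 mutants. The P4 signals were 6.97, 7.24, 6.86 and 7.15 in controls and 7.40, 7.33, 7.59 and 7.48 in mutants. The P4 mutants lay above all other groups. Mutants and controls at P4 did not overlap for 48.4% of all 281 expressed miRNAs. From E17 to P4 mutants rose by 0.56 (standard error 0.18, limma adjusted p = 0.0316), with the second probe at 0.41 (adjusted p = 0.129). Leaving out any one of 5 arrays (fl-E17 1 and 4, fl-P4 1, 3 and 4) put the adjusted p of the first probe between 0.0573 and 0.102. In controls the difference with age was 0.36 (adjusted p = 0.125), and without normalization 1.04 (adjusted p = 7.554e-06). The mutant minus control difference at P4 was 0.40 (95% interval 0.01 to 0.78, adjusted p = 0.0878), and −0.02 without normalization.

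The probe of mmu-miR-709 had 12.42, 12.11, 12.12 and 12.48 in E17 controls and 11.41, 12.46, 12.93 and 11.79 in E17 mutants. At P4 it had 11.56, 11.11, 10.64 and 11.22 in controls and 12.12, 10.81, 10.84 and 11.72 in mutants. P4 controls lay below every E17 control (43.4% of all 281 expressed miRNAs did not overlap there), and the mutants of both ages overlapped the controls of their age. The difference with age in controls was −1.15 (standard error 0.34, limma adjusted p = 0.0148), but 0.62 (adjusted p = 0.0107) without normalization, a reversal that passed both limits each way. The second probe gave −0.51 (adjusted p = 0.177) after normalization, and the 2 probes correlated with r = 0.781. In mutants the difference with age was −0.78 (95% interval −1.51 to −0.04, limma adjusted p = 0.113), with the second probe at 0.03. Without normalization it was 0.37 in the brightest probe. The miRNA was called lower with age in mutants without fl-E17 1 and without fl-P4 1. The mutant minus control difference was 0.24 (95% interval −0.49 to 0.97, adjusted p = 0.596) at P4 and −0.13 (−0.86 to 0.60, adjusted p = 0.845) at E17.

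By their brightest probes, mutants and controls did not overlap for 3 of the 10 names at P4 and 2 at E17, against 48.4% and 24.9% of all 281. With age the groups did not overlap for 3 names in controls and 2 in mutants, against 43.4% and 29.9%. Set against all expressed miRNAs, 1 of the 10 names, mmu-miR-720, was called between mutants and controls at P4, where 21% of 281 miRNAs were called. At E17 it was again mmu-miR-720, through its dimmer probe, where 6.05% were called. That count fell to 0 on leaving out any one of 9 arrays (wt-E17 1, 2 and 3, fl-E17 2, 3 and 4, wt-P4 1, fl-P4 1 and 4). Without normalization, and in the methods' t-test after adjustment, the 1 name called at E17 was mmu-miR-1224, lower. From E17 to P4 in controls 6 of 10 were called, all lower, where 20.3% were called and 12.1% were called lower. They were mmu-miR-1224, mmu-miR-720, mmu-miR-689, mmu-miR-709, mmu-miR-721 and mmu-miR-1897-5p, of which the first 3 had earlier values known, so nothing is read from that share. In mutants mmu-miR-720 was called lower and mmu-miR-690 higher with age, where 10.7% were called, and 1 of the 10 was called without fl-E17 4, fl-P4 2, fl-P4 3 or fl-P4 4. The difference between the mutant effects was called for mmu-miR-721 alone, where 9.61% were called.

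Other scalings moved these splits. With age in controls the 6 lower calls became 2 higher (mmu-miR-690 and mmu-miR-709) without normalization between arrays, and 8 lower when arrays were scaled to the 75th percentile of miRNAs detected on all arrays. Of all 281 miRNAs, 161 were called higher and 4 lower without normalization, and 36 higher and 180 lower with that scaling. Between mutants and controls at P4 that scaling called 7 names higher, and no normalization called 0. Over all 281 it called 169 higher and 41 lower there, and no normalization called 1 higher and 89 lower. The median difference of the 10 names after quantile normalization was 0.22 at P4 and −0.11 at E17, against 0.06 and 0.00 over all 281. With age it was −0.56 in controls and −0.10 in mutants, against −0.02 and 0.03. Without wt-P4 2 the count was 3 of 10 at P4 (24.6% of all), 3 at E17 (7.83%) and 3 for the change of the mutant effect between ages (13.2%). The added names were mmu-miR-1224 and mmu-miR-689, chosen with that array's values known, so nothing is read from these counts.

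The 10 names took up a varying share of the summed signal before normalization. The share was 7.20% to 10.8% in E17 controls, 5.37% to 10.2% in E17 mutants, 3.01% to 6.07% in P4 controls and 3.52% to 7.58% in P4 mutants. The highest of the P4 controls was again wt-P4 2, and the other 3 reached at most 3.82%. Part of that array's share was mmu-miR-1224, at 2.82% against 0.270% to 0.323% in the other P4 controls. On every array but wt-P4 2 the largest part was mmu-miR-709, from 1.833% on fl-P4 2 to 6.055% on fl-E17 3.

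For each name, the 3 other miRNAs with the highest Pearson correlation over the 16 arrays were listed, 21 miRNAs in all, 6 of them for more than 1 name. Nearest to mmu-miR-1224 were miR-122 (r = 0.910, Spearman 0.903), miR-494 (0.909) and miR-188-5p (0.901). Nearest to mmu-miR-689 were miR-122 (0.974, Spearman 0.950), miR-494 (0.952) and miR-714 (0.931). Without wt-P4 2 the r of mmu-miR-689 with miR-122 was 0.972.

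Several of the weak names shared their neighbours. For mmu-miR-721 they were miR-188-5p (r = 0.909), miR-680 (0.865) and miR-574-5p (0.853). For mmu-miR-1897-5p they were miR-680 (0.934), miR-1896 (0.917) and miR-188-5p (0.893). For mmu-miR-877 they were miR-483 (0.833), miR-188-5p (0.791) and miR-680 (0.791).

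The remaining names had other neighbours. Nearest to mmu-miR-720 were miR-483* (r = 0.886), miR-495 (0.854) and miR-376b (0.853), and nearest to mmu-miR-709 were miR-652 (0.866), miR-718 (0.817) and miR-671-5p. Those of mmu-miR-320 were miR-1896 (0.872), miR-652 (0.852) and miR-455 (0.815). Those of mmu-miR-484 were miR-181d (0.790), miR-181b (0.782) and miR-17* (0.768), and those of mmu-miR-690 were miR-29b (0.816), miR-365 (0.774) and miR-30b* (0.745).

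**Figure D4:**
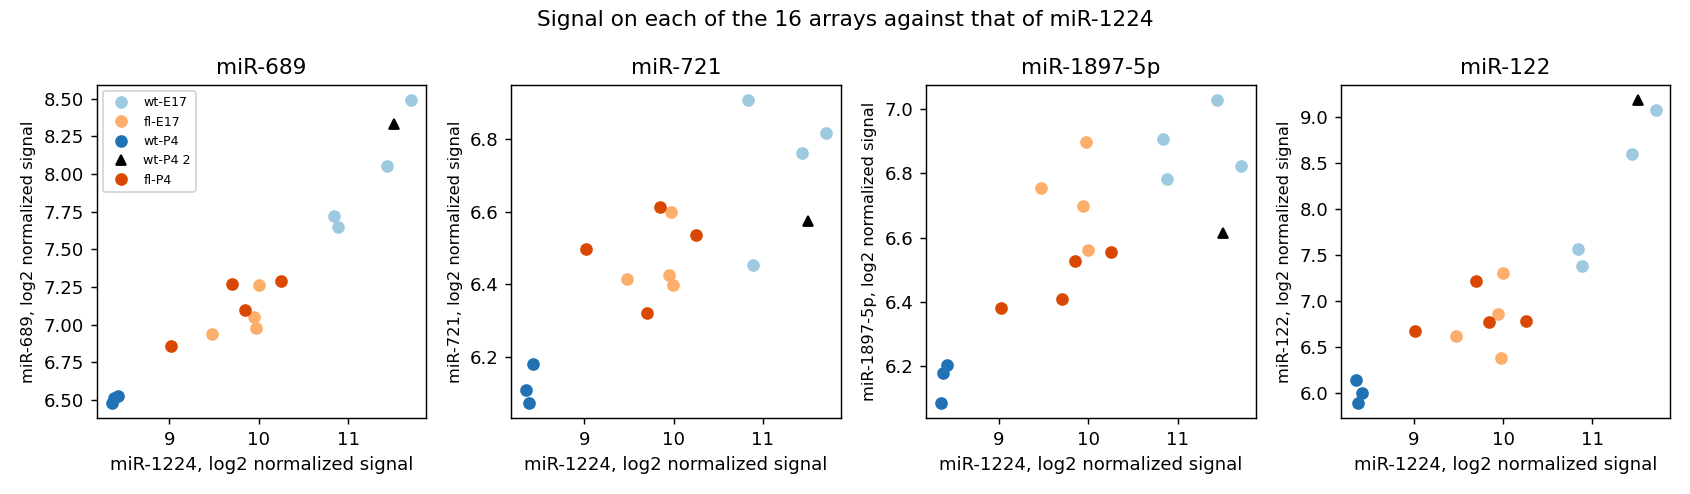
Log2 normalized signal of miR-689, miR-721, miR-1897-5p and miR-122 (y axes) against that of miR-1224 (x axis) on each of the 16 arrays, coloured by group, with wt-P4 2 as a triangle. On the x axis wt-P4 2 lies among the E17 controls, and in each panel the other 3 P4 controls lie lowest.

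Signals of other cell types were set beside this pattern. The summed signal of the erythroid list (miR-451, miR-144, miR-486; all 3 on the array) was 1746 on wt-P4 2 and 205.1 to 359.7 on the other P4 controls. At E17 it was 788.5 to 3283 in controls and 2103 to 4787 in mutants, while mmu-miR-1224 and mmu-miR-689 were lower in those mutants. In P4 mutants it was 453.4 to 1218, above the P4 controls other than wt-P4 2. These sums are of signals before normalization. After normalization mmu-miR-1224, mmu-miR-689 and mmu-miR-720 also lay above those controls in every P4 mutant. Without it mmu-miR-689 did so too, but for mmu-miR-1224 fl-P4 2 lay below wt-P4 3 (9.19 against 9.33). For mmu-miR-720 P4 mutants (10.01 to 10.54) then overlapped P4 controls (up to 10.39). Of the marker miRNAs, miR-451 (1.35, limma adjusted p = 0.0306), the leukocyte miR-223 and the endothelial miR-126-3p were called higher in P4 mutants. They were 1 of 3 expressed miRNAs of the erythroid list, 1 of 3 of the leukocyte list and 1 of 2 of the endothelial list. The neuron miR-9 and all 3 Schwann cell miRNAs were called lower, and 0 of the muscle list were called. The summed endothelial signal was 926.9 to 1512 in P4 mutants, overlapping that of P4 controls. The muscle list (4 of 4 on the array) had 572.4 on wt-P4 2 and 259.4 to 343 on the other P4 controls, and the endothelial list (2 of 2) 2381 and 1138 to 1290. The leukocyte list (5 of 5, with miR-142-5p detected on no array) had 341.6 and 227.9 to 253.8, and the neuron list (4 of 4) 189.2 and 168 to 171.8. The liver miRNA miR-122 had 9.19 on wt-P4 2 and 5.89 to 6.14 on the other P4 controls, and 7.38 to 9.08 in E17 controls against 6.38 to 7.31 in E17 mutants, the same order as mmu-miR-1224, with 6.68 to 7.21 in P4 mutants. The part of these signals in the results for the 10 names was not tested.

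Names close by in number were counted in the same way. Of the 35 other mouse names in the block of numbers that ends with miR-721 and holds miR-689, 7 were expressed and 0 were called in any of the 5 comparisons by limma or by the methods' t-test (5 had a probe with an unadjusted limma p under 0.05 in some comparison, and the same 5 one with an adjusted p of 0.05 or less, none of them past the log2 limit of 0.5). Nearest to that limit with age in controls was miR-718, which differed by −0.47 (adjusted p = 1.4e-05). Of 17 names numbered near miR-1897, 6 were expressed and 1 was called, miR-1895, whose mutant effects differed between the ages by 0.55 (standard error 0.16, limma adjusted p = 0.0388), and which the methods' t-test did not call. Of 4 disputed names or mirtrons outside the 10, 1 was expressed, miR-702, which is also among those 7 and had no unadjusted limma p under 0.05. The median differences with age in controls were −0.10 for the 7 and −0.16 for the 6.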

How the data were processed

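Total RNA of sciatic nerves was labelled with Cy3 and hybridised to 1-colour Agilent mouse miRNA arrays, 1 mouse per array. The authors deposited the scanner output of Agilent Feature Extraction 10.5.1.1, with the linear intensity of each spot not normalized between arrays, and a table of quantile-normalized intensities, used as an alternative. Arrays give no read depth: their number limits the precision.

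Here the log2 median spot signal was quantile normalized over the 13000 non-control spots of all 16 arrays and averaged per probe without outlier spots. A miRNA was expressed if detected on a share of at least 0.5 of a group's arrays (281 miRNAs, 681 probes). Group means were fitted with limma 3.58.1 (R 4.3.3) on all arrays, and p-values were adjusted over 681 probes by the Benjamini-Hochberg method. A call needed 1 probe with an adjusted p of 0.05 or less that differed by 0.5 or more on the log2 scale, with no probe called the other way. A probe counted as well above background on an array where more than 0.5 of its spots were flagged so. The named miRNAs are the 10 members, the 3 nearest to each and any called in the lists of neighbours. Members and lists were chosen with earlier results of these data known. In simulated data, log2 changes of 1 in 200 of 681 probes were recovered in 99.0% of cases for the P4 comparison of genotypes and in 95.5% for E17. These rates do not cover smaller changes, nearer the limit of 0.5. Sequences are RefSeq's (GRCm38.p6). The build behind the array's names is not given in the sources used here.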

Additional observations from a re-analysis of the deposited data

Results flagged for a closer look

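Within groups of 4 arrays, Dixon's ratio was above its critical value for 5 values of the 10 names, out of 40 groups tested. Over all 281 expressed miRNAs it was so in 7.83% of groups, and chance alone gives about 1 in 20. Both values of wt-P4 2 were known when the names were chosen, so the count is not set against either. On wt-P4 2, mmu-miR-1224 had 11.51 and mmu-miR-689 had 8.33, both above the other P4 controls. On fl-E17 1, mmu-miR-1224 had 9.48 and mmu-miR-720 had 10.57, both below the other E17 mutants. On fl-E17 3, mmu-miR-721 had 6.60, above the other E17 mutants.

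The mutant effect on mmu-miR-721 differed between the ages by 0.53 on the log2 scale (limma interaction, adjusted p = 0.0392), and 3 of 4 E17 controls lay above every E17 mutant while 3 of 4 P4 controls lay below every P4 mutant. That difference was 0.13 (limma adjusted p = 0.669) without normalization between arrays, and the signals lay close to background.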

How the results depend on the processing

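Of the differences of single members, by their brightest probe, 1333 kept their direction and their side of the limits under the alternatives, 73 no longer passed, 42 came to pass, and 64 that passed neither way turned their sign, 19 of them without normalization. Changes of filter, test, replicate block or log2 limit kept the same difference, so its direction could not turn there. The same held on leaving out an array of a group not compared. Reversed among the differences that passed were mmu-miR-720 with age in controls without normalization (0.21) and mmu-miR-709 there (0.62) and when scaled to the 75th percentile of all probes (0.25). For the difference in mutant effects the brightest probe of mmu-miR-721 no longer passed without wt-P4 1 (0.48), wt-P4 3 (0.49) or 10 other single arrays, and in the deposited intensities (0.51, adjusted p = 0.0907), where another probe kept the miRNA called. The cause of these shifts was not tested.

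Numbers of members called (1 at P4, 1 at E17, 6 and 2 with age in controls and mutants, 1 for the difference in mutant effects) and of all miRNAs called (59, 17, 57, 30 and 27) moved by over 1.5 times as follows. Without normalization members were 0 at P4, 2 and 1 with age, and all miRNAs 90, 7, 165, 65 and 86. Scaled to the 75th percentile of detected miRNAs they were 7 at P4, 0 at E17 and 2 for the difference, and 210, 216, 80 and 46 of all (P4, ages, difference). Scaled over all probes members were 0, 0, 2, 1 and 0, and all miRNAs 97, 65 and 50 for the ages and the difference. Background-subtracted signals gave 4 members at P4 and 0 at E17, and 148, 139 and 93 of all. Deposited intensities gave 43 of all for the difference. Normexp on the median signal, added after seeing the data, gave 11 of all at E17, 1 member with age in mutants and 0 for the difference. The planned normexp on mean signals was not run, because the columns used here hold no mean signal. No filter gave 0 members and 10 of all at E17, and 1 member with age in mutants. The mean over probes gave 10 of all at E17, 37 with age in controls, and 1 member in mutants. The methods' t-test gave 1 member in mutants after Benjamini-Hochberg and 3 at E17 unadjusted. Array weights gave 2, 3 and 4 members at P4, E17 and for the difference, and 57 of all there. Fits of 2 groups gave 2 members at E17 and 1 with age in mutants. A log2 limit of 1 gave 0 members at E17, in mutants and for the difference, and 14, 0, 13, 6 and 7 of all.

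Leaving out single arrays gave 1 to 3 members at P4, 0 to 3 at E17, 4 to 6 and 1 to 2 with age, and 1 to 3 for the difference. For all miRNAs it gave 57 to 69, 8 to 23, 48 to 64, 29 to 37 and 23 to 42. The highest member counts at P4, E17 and for the difference were without wt-P4 2, and the highest count of all for the difference was without fl-P4 3. With the replicate block within age, 1, 1, 5, 1 and 1 members were called. Same-numbered arrays did not all deviate together (r of −0.52 to 0.46 over the 8 pairs), so the numbers were not taken as pairs. The replicate block ended the call of mmu-miR-690 in mutants (adjusted p = 0.115).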
